A study of Drosophila melanogaster with 24 samples.

Results

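The comparison of F2-M18-G18 with F2-M25-G18 asks what a change of microbiome source does to the transcripts of flies that share the germline of cold-treated parents. It rests on 7 of the 24 RNA-seq libraries of the series, of which 22 have values. F2-M18-G18 has 4 libraries (replicates A, B, C and D), and F2-M25-G18 has 3 (replicates A, B and D). Its replicate C was not analysed here. The groups were chosen by library name, read in the order microbiome (M) and then germline (G). A gene was tested when its value was at least 10 in at least 3 of these 7 libraries, which left 10950 of the 12024 genes of the deposited table.

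All flies were Drosophila melanogaster of the isogenic strain w1118_iso/Dp(1;Y)y+_iso;2_iso;3_iso, which is white-eyed and carries a copy of y+ on its Y chromosome. F1 flies lived at 18 °C (cold-treated) or at 25 °C (control). Eggs of cold-treated parents were washed with hypochlorite and placed on boiled food that held the faeces of cold-treated F1 males (F2-M18-G18) or of control F1 males (F2-M25-G18). All F2 flies then lived at 25 °C, and each library was made from the pooled RNA of 20 whole males 0 to 16 h old. The microbiome is therefore a faecal community taken up from the food, and the germline includes everything else that passed through the washed egg. The males left their faeces at their own temperature, 18 or 25 °C. The study lists less DNA and a larger share of Acetobacteriaceae in the food with faeces of cold-treated males. Source, amount and composition of the bacteria cannot be told apart here. Replicates were separate biological samples per the study's methods. In pooled whole flies, fewer cells of a type and less RNA per cell cannot be told apart.

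Gut bacteria shape fly physiology through several known routes. Peptidoglycan from their walls is read by peptidoglycan recognition proteins, which start the Imd pathway and the release of antimicrobial peptides, and the Toll pathway drives a further set of peptides that includes the Bomanins. Bacteria also supply nutrients and metabolites, which bear on digestive enzymes, fat body metabolism and the oxidative phosphorylation of mitochondria. The respiratory chain is built from subunits encoded in the nucleus and from a few encoded in the mitochondrial genome, which is passed on in the egg.

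The identity of the crossed group is in conflict between the sources. The library names of the study's supplement give the microbiome before the germline, so that the 3 libraries here called F2-M25-G18 took the microbiome of control flies. The titles and sources entered for the same 3 samples in the repository give the opposite order, with the germline of control flies and the microbiome of cold-treated flies. Under that reading the 7 libraries would compare 2 germline sources within the M18 microbiome. The microbiome comparison in the cold-history germline would then set F2-M18-G18 against the 4 libraries here called F2-M18-G25. Both readings were fitted. For the exchange, values are given below for the overall counts, for the gene lists in total and for some of the genes named, and not for every gene that differs.

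Low values fall on steps of whole reads, and the reads of a library estimated from these steps numbered about 2660314 to 4596270. A read was worth about 0.839 to 1.59 units of value. Values near 10 therefore rest on a few reads. For 5 of the 7 libraries the estimate came within 0.25% of a read total that the study lists, a tolerance set after the totals were seen. In 2 of the 5 that total stands under another library of the same condition, and in 3 under a library of another condition with the same microbiome source (replicate A of F2-M18-G18 and replicates A and D of F2-M25-G18). Whether libraries were exchanged was not tested, and the libraries are named as in the deposited table. Male markers were abundant, with Acp36DE of the accessory gland at 2845 to 4227 and the spermatid gene Mst87F at 806 to 1017, whereas the yolk protein genes Yp1 and Yp2 did not exceed 2.89 and 9.43. Rank correlations between libraries were 0.983 to 0.988 within F2-M18-G18, 0.985 to 0.987 within F2-M25-G18 and 0.977 to 0.985 between the groups.

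Between the groups 79 genes (0.721% of those tested) were differentially expressed at a Benjamini-Hochberg adjusted p under 0.05 (limma), against 1563 (14.3%) without the adjustment. Of the 79, 36 (0.329%) were higher and 43 (0.393%) lower in F2-M18-G18 than in F2-M25-G18. Differences are given as F2-M18-G18 minus F2-M25-G18 on the scale of log2(value + 2), which understates the change of genes with low values. In 1830 genes (16.7%; 8.48% higher and 8.23% lower) the 4 values of one group lay wholly above or below the 3 of the other, and all 79 were among them. The higher genes had a median log2 difference of 0.55, and the lower genes one of -0.69. The split followed the scaling. With values scaled to equal library totals the median of all genes moved to 0.07, and 58 genes were higher and 25 lower.

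The count depended on single libraries. It was 27, 50, 32 and 29 without replicate A, B, C or D of F2-M18-G18, and 19, 34 and 4 without replicate A, B or D of F2-M25-G18. The 4 genes called without replicate D of F2-M25-G18 were mt:ND1, mt:ND4, CG9016 and CG1394, all among the 79. All 79 kept their sign in each of these 7 fits. Without the 3 libraries whose read total matched another condition, a fit that leaves 3 libraries against 1, limma called 0 genes and found 461 at an unadjusted p under 0.05, and all 79 kept their sign. In that fit the 10 mitochondrial genes had a median of -1.18, and 10 of the 10 an unadjusted p under 0.05. With the crossed groups exchanged, 206 of 10964 genes passed, 1.88% in all, 196 higher and 10 lower (1.79% and 0.0912%), and 2 of them were among the 79.

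The genes of the mitochondrial genome held the lowest part of the list. Of the 10 tested, 9 fell in F2-M18-G18 against F2-M25-G18, where 0.393% of all genes were called lower, and the median of the 10 was -1.38 against 0.00 for all genes. The 7 subunits with the largest values encode parts of cytochrome c oxidase (complex IV), cytochrome b (complex III), ATP synthase and NADH dehydrogenase (complex I).

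**Figure D1:**
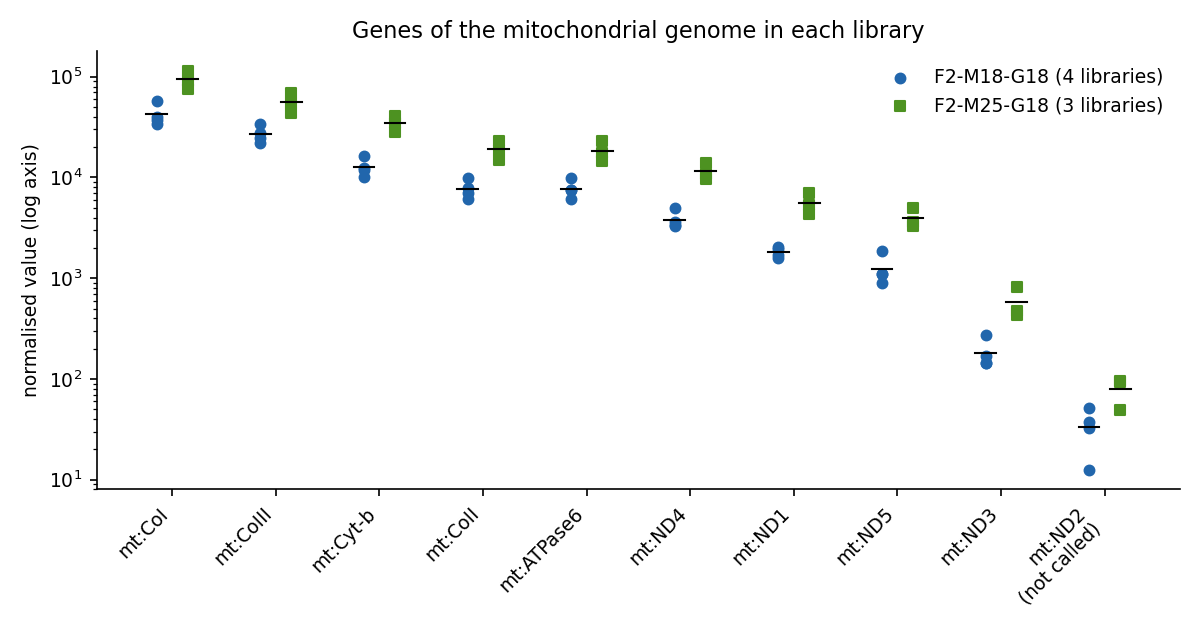
Normalised values (log axis) of the 10 tested genes of the mitochondrial genome in the 4 libraries of F2-M18-G18 (circles) and the 3 of F2-M25-G18 (squares), with bars at the group means. In 9 genes every F2-M25-G18 library lies above every F2-M18-G18 library, and in mt:ND2, which was not called, the groups overlap.

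mt:CoI (FBgn0013674, mitochondrial genome 1474 to 3009, plus strand), the catalytic subunit of cytochrome c oxidase, had values of 40164, 57410, 37155 and 34240 in F2-M18-G18 A to D and of 91656, 76034 and 114841 in F2-M25-G18 A, B and D. The groups did not overlap, and replicate D of F2-M25-G18 was the highest. The means were 42242 ± 10397 (SD, n = 4) and 94177 ± 19526 (SD, n = 3), a log2 difference of -1.17 (standard error 0.23, limma, adjusted p = 0.0208).

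mt:ND1 (FBgn0013679, 11721 to 12659, minus strand), a membrane subunit of complex I, had 1968, 2023, 1681 and 1569 in F2-M18-G18 and 5340, 4338 and 7052 in F2-M25-G18. It had the smallest adjusted p of the mitochondrial genes, with a log2 difference of -1.60 (standard error 0.21, limma, adjusted p = 0.00131), and without replicate D of F2-M25-G18 the difference was -1.42 (adjusted p = 0.0308). mt:ND5 (FBgn0013684, 6409 to 8125, minus strand), also of complex I, had 1094, 1877, 1091 and 906 against 3635, 3310 and 4931. This was the largest decrease among the genes called, -1.71 on the log2 scale (standard error 0.27, adjusted p = 0.00699).

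The lower values spanned both strands of the mitochondrial genome. mt:ND4 (8207 to 9545, minus strand) fell by 1.60, mt:ND3 (5608 to 5961, plus strand) by 1.64 and mt:Cyt-b (10499 to 11635, plus strand) by 1.45 on the log2 scale. mt:CoII (3083 to 3767), mt:ATPase6 (4062 to 4736) and mt:CoIII (4736 to 5524), which lie in this order on the plus strand, fell by 1.30, 1.247 and 1.05. mt:ND2 (240 to 1263) had 37.6, 51.0, 32.2 and 12.6 against 48.9, 94.4 and 93.6. Its log2 difference was -1.28 (standard error 0.48) with an unadjusted p of 0.0143, and the groups overlapped. Of the 13 mitochondrial genes with values 10 were tested. mt:ND6, with a value under 10 in all 7 libraries, was among those not tested.

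The mitochondrial genes took 2.18% to 3.21% of the summed values in the F2-M18-G18 libraries and 4.59%, 5.65% and 6.91% in the F2-M25-G18 libraries. The latter were the 3 highest shares of the 22 libraries. F2-M18-G25 had 2.27% to 2.59%, F2-M25-G25 had 1.93% to 2.02%, F1-18 had 2.87% to 4.19% and F1-25 had 2.15% to 4.23%. These are shares of normalised values, not of reads. In F2-M25-G25 many values of replicates C and D were calculated from A and B, and the ranges given for that group include them while the fit left them out. With the crossed groups exchanged the median of the 10 genes was 0.10, and 0 were called or had an unadjusted p under 0.05 (limma).

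**Figure D2:**
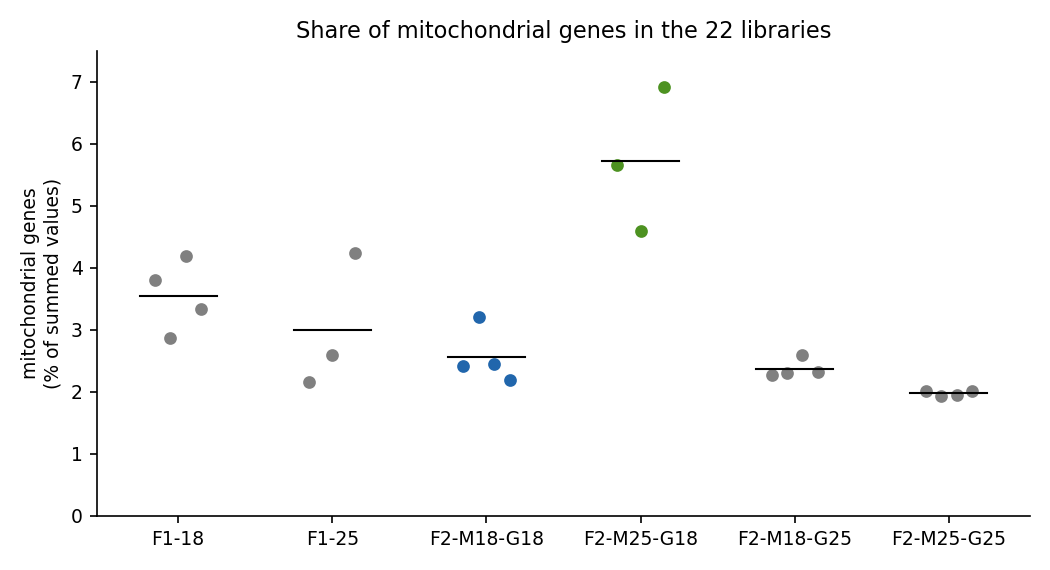
Share of the summed normalised values taken by genes of the mitochondrial genome (percent) in each of the 22 libraries by group, with bars at the group means. The 3 libraries of F2-M25-G18 lie at 4.59% or above, and the 19 others at 4.23% or below.

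Among the 91 tested nuclear genes of oxidative phosphorylation, 74 had a value lower in F2-M18-G18 on average and 17 a higher one, with a median log2 difference of -0.27 against 0.00 for all genes. UQCR-11 and COX7AL2 fell, where 0.393% of all genes were called lower, and none rose. UQCR-11 (FBgn0260008, chromosome 3L, 25120709 to 25126171), a small subunit of complex III, had 348, 531, 317 and 358 in F2-M18-G18 and 795, 779 and 1096 in F2-M25-G18. The groups did not overlap, and the log2 difference was -1.20 (standard error 0.19, limma, adjusted p = 0.00699). COX7AL2 (FBgn0085201, chromosome 2L, 2192525 to 2197912), a subunit of the COX7A family of complex IV, had 320, 397, 210 and 245 against 558, 627 and 756, a log2 difference of -1.17 (standard error 0.23, adjusted p = 0.0224).

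The groups did not overlap in 21 lower and 2 higher genes of this list, where 8.23% of all genes were lower and 8.48% higher without overlap. ATPsynbeta, the catalytic subunit of ATP synthase, had values from 14926 to 21136 in F2-M18-G18 and from 24108 to 27891 in F2-M25-G18 (log2 difference -0.58, adjusted p = 0.127). The direction differed between names. Of the 23 members whose name ends in L or in L and a digit, which marks a gene named after a close relative, 15 were higher and 8 lower, with a median of 0.04. Of the 68 others 2 were higher and 66 lower, with a median of -0.33. This division was made after the values were seen. The largest positive difference was that of ND-24L, 0.43. Without replicate D of F2-M25-G18 the median of the 91 genes was -0.24.

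Further nuclear genes of mitochondria were among those that fell, and they were picked out after their values were seen. mRpL27 and mRpL28, proteins of the large mitochondrial ribosomal subunit, fell by 0.68 and 0.53 on the log2 scale. mTerf5 of the mitochondrial transcription termination factor family fell by 0.69, and Ttc19, an assembly factor of complex III, by 0.53. For mRpL27 the values were 65.2, 66.7, 62.9 and 59.4 against 118, 96.2 and 97.2 (adjusted p = 0.0159).

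Among the other nuclear genes that fell was Mzt1 (FBgn0261858, chromosome 3L, 2389265 to 2389650), a component of complexes that organise microtubules. It had 21.6, 11.6, 19.6 and 25.5 in F2-M18-G18 and 42.6, 43.3 and 38.1 in F2-M25-G18. Its log2 difference was -1.05 (standard error 0.21, limma, adjusted p = 0.0208), and it was called lower with the crossed groups exchanged as well (-0.75, adjusted p = 0.047). TpnC4, a troponin C of the flight muscle, had 2242, 2706, 1753 and 1876 against 3994, 3839 and 4845, a log2 difference of -0.99 (adjusted p = 0.0275). It was the only 1 of 24 muscle genes tested that passed, where 0.721% of all genes did. In that list 7 genes were lower and 6 higher without overlap, where 8.23% and 8.48% of all genes were, with Act57B, a muscle actin, at the other end (0.45, adjusted p = 0.117).

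RpL38, a protein of the cytosolic ribosome, had 362, 407, 358 and 339 in F2-M18-G18 against 568, 615 and 849 in F2-M25-G18, a log2 difference of -0.86 (standard error 0.16, limma, adjusted p = 0.0151). The other 84 ribosomal protein genes tested did not pass, where 0.721% of all genes did, and the median of the 85 was -0.03. Their ends were RpL38 itself and RpL37-1 (0.33).

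Genes of the male reproductive tract moved in either direction. Sfp96F, a seminal fluid protein gene on chromosome 3R (25830061 to 25830228), had 23.3, 25.3, 23.9 and 27.8 against 43.5, 58.2 and 44.8. It fell by 0.90 on the log2 scale (standard error 0.16, limma, adjusted p = 0.0099). In the other groups it had 20.97 to 32.2 in F2-M18-G25, 36.0 to 54.4 in F2-M25-G25, 28.9 to 34.4 in F1-18 and 87.3 to 104.9 in F1-25. Its log2 difference was 0.01 after the exchange of the crossed groups (adjusted p = 0.974). Acp33A, an accessory gland protein, was the 1 member called among 32 accessory gland genes, where 0.721% of all genes passed. It had 105, 118, 116 and 137 against 166, 226 and 191 (log2 difference -0.69, limma, adjusted p = 0.0139). The median of that list was -0.08, and its ends were Acp54A1 (-1.77) and Acp32CD (0.35), neither past the threshold.

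Among 25 testis genes Mst98Ca and Mst84Dc, both proteins of developing spermatids, rose, where 0.329% of all genes were called higher. Mst98Ca had 1766, 1881, 1763 and 1763 in F2-M18-G18 and 1484, 1423 and 1331 in F2-M25-G18, a log2 difference of 0.34 (standard error 0.07, limma, adjusted p = 0.0275). Mst84Dc had 482, 475, 507 and 502 against 379, 382 and 357 (0.40, adjusted p = 0.044). Its neighbours in the same gene cluster did not follow it. Mst84Da and Mst84Dd had log2 differences of -0.29 and -0.40, without overlap and short of the threshold (adjusted p = 0.073 and 0.0942). Mst98Ca was at -0.07 and Mst84Dc at -0.14 under the exchange, neither past the threshold. The median of the list was 0.02, between Mst84Dd and Mst89B (0.45). These are short genes in a family with similar sequences, and only unique reads were counted. The part of read assignment in these differences was not tested.

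The largest increase was that of CG11426 (FBgn0037166, chromosome 3L, 22470556 to 22473509). It had 69.1, 86.6, 119 and 80.3 in F2-M18-G18 and 34.0, 29.3 and 23.8 in F2-M25-G18. All 4 values lay above those of the other group, and the log2 difference was 1.54 (standard error 0.27, limma, adjusted p = 0.00989). With the crossed groups exchanged it was also called higher (0.99, adjusted p = 0.0424), since F2-M18-G25 had 31.5 to 57.4. F2-M25-G25 had 22.6 to 54.4.

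CG9016 (FBgn0031751, chromosome 2L, 5922876 to 5923653) had 1327, 1103, 1220 and 1252 against 674, 552 and 473. The log2 difference was 1.12 (standard error 0.14, limma, adjusted p = 0.00131), and without replicate D of F2-M25-G18 it was 1.001 (adjusted p = 0.0308). Its values were 1137 to 1527 in F2-M18-G25 and 857 to 865 in F2-M25-G25, so that F2-M25-G18 was the lowest of the F2 groups. CG1394, on the X chromosome (11169811 to 11170678), was steadier between replicates, with 798, 758, 760 and 795 against 536, 542 and 512 (0.55, adjusted p = 0.00153). The F2 groups with the control germline had 699 to 870.

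Genes of the cell cycle were among the increases, a group noticed after the values were seen. borr (FBgn0032105, chromosome 2L, 9251472 to 9253118), a Borealin of the chromosomal passenger complex, had 36.5, 28.9, 33.6 and 35.3 in F2-M18-G18 and 12.0, 15.3 and 22.02 in F2-M25-G18. Its log2 difference was 0.98 (standard error 0.21, limma, adjusted p = 0.0275). Rca1, an inhibitor of the anaphase-promoting complex, had 38.5, 43.2, 44.6 and 45.4 against 25.4, 34.6 and 17.0 (0.75, adjusted p = 0.0484). fzr, which activates the same complex, rose by less, from a mean of 146 ± 10.6 (SD, n = 3) to 188 ± 7.75 (SD, n = 4).

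Of the remaining large increases, msopa, a male-specific transcript, had 701, 619, 686 and 733 against 429, 497 and 330 (log2 difference 0.73, limma, adjusted p = 0.0275). CG15522 rose at low values, with 14.2 to 17.6 in F2-M18-G18 and 5.32 to 11.5 in F2-M25-G18 (0.90, adjusted p = 0.044). CG2652, CG8584, CG32440, CG42688 and CG11663 rose by 0.66 to 0.69, and each lay higher in all 4 F2-M18-G18 libraries than in any of the 3 others. Of these, CG42688 had the largest values, 750 to 899 against 468 to 558.

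**Figure D3:**
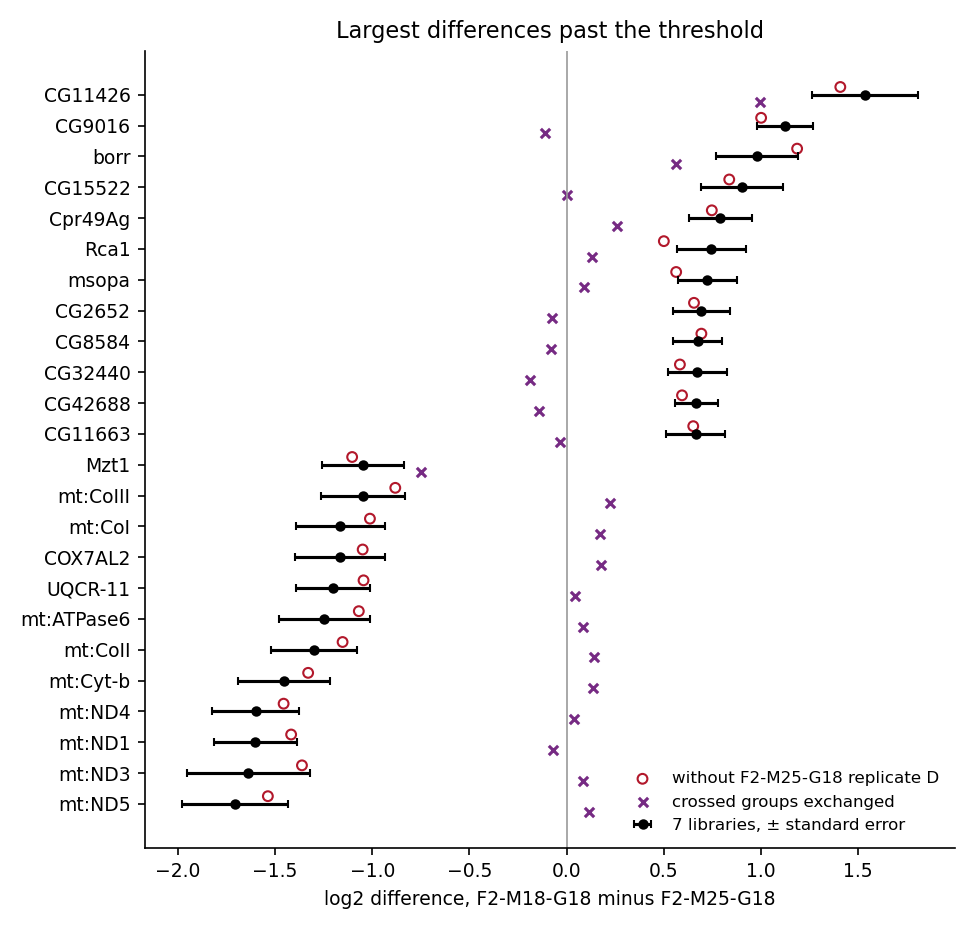
Log2 difference of F2-M18-G18 minus F2-M25-G18 for the 12 largest increases and the 12 largest decreases past the threshold (filled points, bars show ± 1 standard error). Open circles leave out replicate D of F2-M25-G18 and keep the sign in all 24 genes, and crosses set F2-M18-G18 against F2-M18-G25 in place of F2-M25-G18, which reverses the sign in 16 of the 24.

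The immune genes were examined because they respond to bacteria. Of 23 genes of the Imd and Toll pathways, 2 rose and none fell, where 0.329% of all genes were called higher. The median was 0.02. Tab2, a partner of the kinase Tak1 in the Imd pathway, had 187, 178, 169 and 157 in F2-M18-G18 and 131, 116 and 116 in F2-M25-G18, a log2 difference of 0.51 (standard error 0.10, limma, adjusted p = 0.0241). cad, the homeodomain protein that holds down antimicrobial peptide genes in the gut, had 155, 108, 114 and 126 against 73.7, 91.1 and 79.1 (0.61, standard error 0.13, adjusted p = 0.0302). The ends of the list were imd, the adaptor of the pathway (-0.34, adjusted p = 0.248), and Fadd, which joins imd to its caspase (0.64, adjusted p = 0.222).

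Of 14 antimicrobial peptide genes tested, 12 had negative differences, with a median of -0.56, and 0 passed (limma), 6 of them at an unadjusted p under 0.05, which 14.3% of all genes had. In 9 the F2-M25-G18 libraries lay above all F2-M18-G18 libraries, as in 8.23% of all genes. The 6 were all Bomanins, and so were the 9 except CecA1. The members outside that family differed in sign, with DptA at -0.40, CecA1 at -0.20, Drsl5 at -0.06, Drs at 0.12 and AttB at 1.17. BomS6, a short Bomanin of the Toll response, had 142, 185, 137 and 182 in F2-M18-G18 and 358, 340 and 685 in F2-M25-G18, a log2 difference of -1.44 (standard error 0.40, adjusted p = 0.0956). BomS2 had 245, 357, 215 and 244 against 552, 439 and 770 (-1.13, adjusted p = 0.168). The Bomanins lie in clusters of similar short genes, and only unique reads were counted. The part of read assignment in their differences was not tested. In the F2 groups with the control germline BomS6 had 58.3 to 132.9 and BomS2 had 136 to 209, in each gene below both groups compared.

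Other peptides varied in sign. AttB, an attacin, had the largest positive difference of the list at low values, 7.61 to 19.5 against 0.556 to 12.4 (1.17, adjusted p = 0.353), and its groups overlapped. Drs, the drosomycin of the Toll pathway, had 203, 263, 199 and 193 against 180, 231 and 179 (0.12, adjusted p = 0.847), and with the crossed groups exchanged it was called higher (1.23, adjusted p = 0.0104). DptB and AttC were under 10 in all libraries but replicate B of F2-M18-G18, where they had 26.9 and 60.1, and were not tested. The 10 peptidoglycan recognition protein genes had a median of 0.02 and 0 passed or had an unadjusted p under 0.05 (limma), with ends at PGRP-SC2, an amidase that breaks peptidoglycan (-0.84), and PGRP-SB1 (0.27). Of 17 gut redox genes, which include the oxidase Duox and catalases, 0 passed. An unadjusted p under 0.05 (limma) was found in 2, against 14.3% of all genes (list median 0.00, ends Irc at -0.45 and GstD1 at 0.21). The 2 lysozyme genes tested were LysP (-0.92) and LysE (0.11), and the 2 Turandot stress genes were TotA (-0.05) and TotB (0.34), none of them past the threshold. Under the exchange TotA (2.33, adjusted p = 0.0112) and TotB (2.12, adjusted p = 0.0217) were both called higher.

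No digestive enzyme gene passed. Of 16 gut protease genes 14 were lower (median -0.15), and 0 had an unadjusted p under 0.05 (limma). betaTry, a trypsin, varied within a group from 15.6 to 190 in F2-M18-G18, against 55.0 to 144 in F2-M25-G18 (log2 difference -1.16, limma, adjusted p = 0.623), and Jon99Ciii lay at the other end of the list (0.08). Of 13 maltase and amylase genes 3 had an unadjusted p under 0.05 (limma, median -0.16), against 14.3% of all genes. In 5 of the 13 the groups did not overlap, all lower in F2-M18-G18, where 8.23% of all genes were lower without overlap. Mal-A8 had 357, 328, 409 and 459 against 708, 512 and 661 (-0.69, adjusted p = 0.19), and Mal-A4 was at the upper end (0.51). Among 9 genes of the peritrophic matrix, which lines the gut, and of mucins, Mur18B rose, where 0.329% of all genes were called higher. It had 3406, 3268, 3344 and 3122 against 2577, 2403 and 1917 (0.52, standard error 0.11, limma, adjusted p = 0.0275). The ends of that list were Peritrophin-15a (-0.23) and Mur2B (0.69). Of 10 enteroendocrine peptide genes, from Tk (-0.35) to Orcokinin (0.34), and of 11 genes of gut renewal, from N (-0.08) to the growth factor spi (0.33), 0 passed. In these lists 0 and 3 genes had an unadjusted p under 0.05 (limma), against 14.3% of all genes.

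No gene of the 3 detoxification families passed. Of 68 cytochrome P450 genes 54 were lower (median -0.14), of 26 Ugt genes 21 were lower (median -0.23), and of 28 Gst genes 16 were lower (median -0.04). In these lists 9, 7 and 0 genes had an unadjusted p under 0.05 (limma), against 14.3% of all genes, and 11, 7 and 2 were lower without overlap, against 8.23% of all genes. The ends of the P450 list were Cyp4d21 (-0.87) and Cyp4d1 (0.45), those of the Ugt list Ugt302E1 (-0.83) and Ugt303B1 (0.25), and those of the Gst list GstE6 (-0.48) and GstE1 (0.38). Without replicate D of F2-M25-G18 the P450 and Ugt medians were -0.08 and -0.13, and the Gst median was 0.03. Under the exchange GstE3 (0.73, adjusted p = 0.012) and 3 P450 genes passed, all higher.

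In the cuticle and the eye single genes rose, where 0.329% of all genes were called higher. Cpr49Ag, a cuticle protein with a chitin-binding domain, was called among 29 genes of its family, with 80.2, 54.4, 66.7 and 48.2 in F2-M18-G18 against 36.2, 35.1 and 32.4 in F2-M25-G18 (log2 difference 0.79, standard error 0.16, limma, adjusted p = 0.0238). ninaE, the rhodopsin of the outer photoreceptors, was called among 25 phototransduction genes, with 4670, 5014, 4951 and 4902 against 3513, 3440 and 3165 (0.53, standard error 0.10, adjusted p = 0.0129). Culd, a photoreceptor protein outside the list, rose as well (0.54, adjusted p = 0.0275). ninaE had 4554 to 5188 in the F2 groups with the control germline, which left F2-M25-G18 as the lowest F2 group, and its difference was 0.03 with the crossed groups exchanged. The median of the phototransduction list was -0.03, with ninaD, a scavenger receptor for carotenoids, at its lower end (-0.57). Of 17 pigmentation genes yellow-h of the yellow family fell, where 0.393% of all genes were called lower. It had 57.5 to 65.5 against 93.2, 89.5 and 140 (-0.73, limma, adjusted p = 0.044). The ends of that list were y, which is needed for black pigment (-1.01), and e, which makes the tan precursor (0.43), neither past the threshold. The lower end of the Cpr list was Cpr65Au (-0.92).

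**Figure D4:**
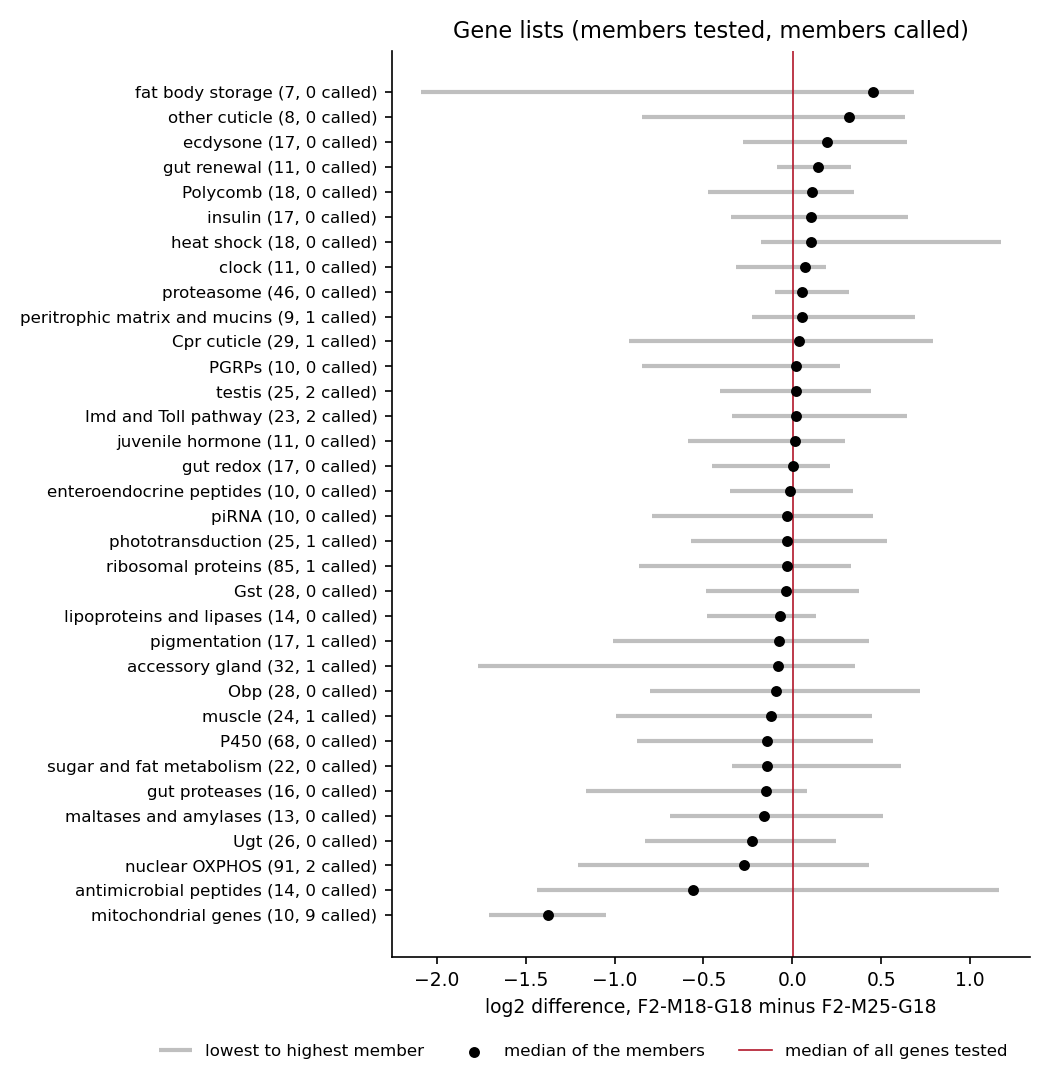
Log2 difference of F2-M18-G18 minus F2-M25-G18 for the gene lists with at least 5 tested members. Points are the list medians, grey bars run from the lowest to the highest member, the line marks the median of all 10950 genes (0.00), and the labels give the members tested and called. The medians of the mitochondrial genes (-1.38), the antimicrobial peptides (-0.56) and nuclear oxidative phosphorylation (-0.27) lie lowest. Most tested members of the antimicrobial peptide list are Bomanins.

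No member passed in the lists of heat shock, cold acclimation, fat body storage, lipoproteins and lipases, proteasome, other cuticle proteins, odorant binding proteins, clock, insulin, ecdysone, juvenile hormone, piRNA, Polycomb, and sugar and fat metabolism. Each of these 14 lists had 0 to 6 genes at an unadjusted p under 0.05 (limma), which 14.3% of all genes had. The odorant binding proteins had 6 of 28. The medians of the 14 lists ran from -0.14 in sugar and fat metabolism to 0.45 in fat body storage. Calls appeared in 7 of them under the exchange, all higher in F2-M18-G18. These were 6 of the 7 fat body storage genes (adjusted p = 0.0112 to 0.0144, limma), 3 genes each of the odorant binding proteins (Obp99b at 2.66, Obp99c at 1.20 and Obp83ef at 0.82), insulin, and lipoproteins and lipases, and 1 each of heat shock, juvenile hormone, and sugar and fat metabolism. Over all 38 lists 30 members in 16 lists passed under the exchange, all higher, and 0 of them were among the members called in the comparison by library name. Hormone and nutrient genes spread to either side. The insulin list ran from Sdr, which binds insulin-like peptides (-0.34), to Ilp8, a relaxin-like peptide of growth control (0.65), and the juvenile hormone list from jhamt, the last enzyme of its synthesis (-0.59), to Jhedup (0.30). Sugar and fat metabolism ran from Gapdh1 of glycolysis (-0.34) to sug, a sugar-responsive transcription factor (0.61), and lipoproteins and lipases from GLaz (-0.48) to Lip2 (0.13). The odorant binding proteins ran from Obp83cd (-0.80) to Obp19a (0.72), the other cuticle proteins from Acp65Aa (-0.84) to Ccp84Ab (0.63), and the clock genes from cry, the blue light receptor (-0.31), to the neuropeptide Pdf (0.19). Among regulators of chromatin and transposons, Polycomb ran from HP1c (-0.47) to ph-d (0.35) and piRNA from tej (-0.79) to krimp (0.46). The proteasome list was the narrowest of these, from Prosbeta4R2 (-0.10) to Prosbeta2R1 (0.32). The female germline and yolk list had 1 tested member, Yp3, with 15.4 to 21.99 over the 7 libraries (0.09).

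The position of the genes called lower was uneven, which was noticed after the values were seen. On chromosome 4, a small chromosome that is largely heterochromatic, 67 of 77 tested genes (87%) were lower in F2-M18-G18, with a median log2 difference of -0.20. In 41 of these lower genes, or 53.2% of the 77, the groups did not overlap, against 8.23% of all genes. The median deviation of the chromosome 4 genes from the mean of the 7 libraries was -0.17, -0.12, -0.06 and -0.04 in F2-M18-G18 A to D and 0.09, 0.14 and 0.15 in F2-M25-G18 A, B and D. CaMKI, CaMKII, CG33521 and yellow-h on this chromosome fell, 5.19% of its tested genes, where 0.393% of all genes were called lower. CaMKII (FBgn0264607, 1035288 to 1053703), a calcium-dependent kinase of synapses, had 1004, 981, 1181 and 1167 against 1483, 1528 and 1477 (-0.47, standard error 0.10, limma, adjusted p = 0.0248). CaMKI (445504 to 453947) had 747, 777, 863 and 931 against 1154, 1128 and 1345 (-0.54, adjusted p = 0.0241). Without replicate D of F2-M25-G18 the chromosome 4 median was -0.21, and with the crossed groups exchanged it was -0.08.

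A like lean was seen at the end of arm 2R next to the centromere. The 10 genes called lower on 2R were 0.454% of its tested genes, where 0.393% of all genes were called lower. All 10 began within its first 7 Mb, which hold 144 of the 2204 genes tested on that arm. They were Maf1, a repressor of RNA polymerase III, CG41520, uex, RpL38, CG3107, gus, sxc, the O-GlcNAc transferase gene, TpnC4, CG17508 and Eb1, a protein of growing microtubule ends. sxc had 559, 643, 569 and 593 in F2-M18-G18 and 757, 795 and 862 in F2-M25-G18 (log2 difference -0.44, limma, adjusted p = 0.0241). In that stretch 23.6% of the genes were lower without overlap and the median was -0.09, against 8.06% and 0.01 in the rest of the arm. On 2L, 3L and 3R the same distance from the centromere held 1 gene called lower each, with medians of -0.02, -0.03 and 0.03. On 3L, 13% of the genes of that stretch were lower without overlap, against 7.4% in the rest of the arm. Among 124 windows of 1 Mb with at least 8 tested genes, that from 23 to 24 Mb on 3L had the third lowest median, -0.29, with 12 of its 12 genes lower, 5 of them without overlap and 0 called. The 7 Mb were chosen after the values were seen.

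**Figure D5:**
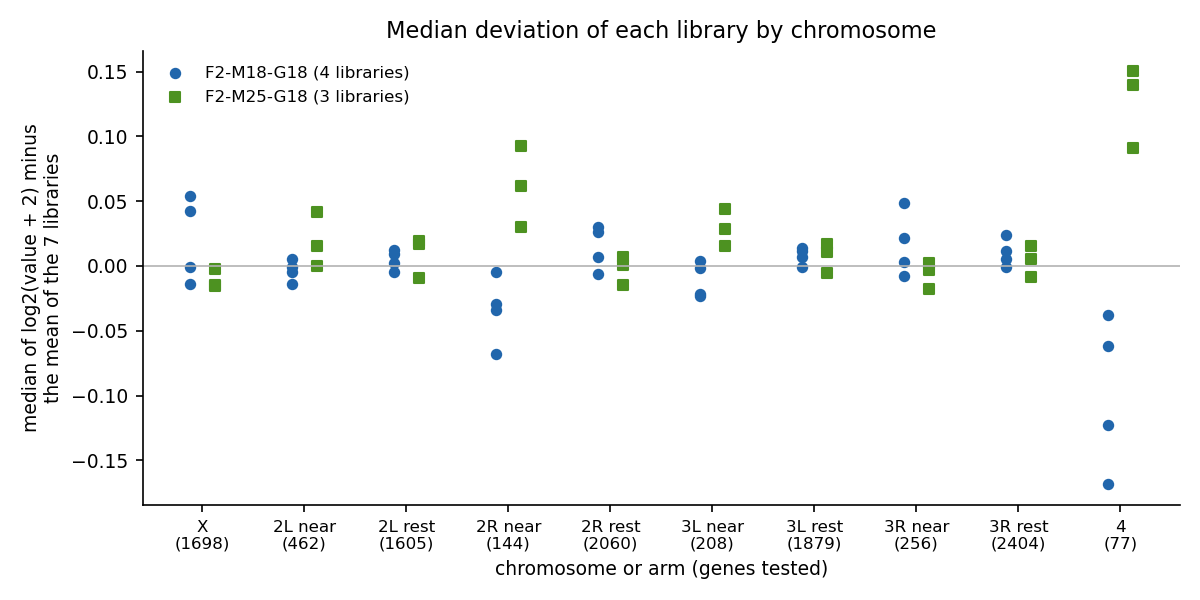
Median over the genes of a chromosome or part of an arm of log2(value + 2) minus the mean of the 7 libraries, for each library of F2-M18-G18 (circles) and F2-M25-G18 (squares). Near marks the 7 Mb of an arm next to the centromere, and the number of genes tested stands in brackets. The groups lie apart on chromosome 4, where F2-M18-G18 is at -0.04 or below and F2-M25-G18 at 0.09 or above, and do so by less near the centromere of 2R and 3L.

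The groups differed by the length of the transcripts, most in 1 library. The genes were divided into 10 classes of about equal size by summed exon length, and the median deviation of replicate D of F2-M25-G18 ran from 0.09 in the shortest class (165 to 759 bases) to -0.15 in the longest (5611 to 71820 bases). In the 6 other libraries it stayed between -0.02 and 0.05 in these 2 classes. From shortest to longest it rose from -0.02, -0.01, -0.02 and 0.01 to 0.05, 0.05, 0.03 and 0.04 in F2-M18-G18 A to D. In F2-M25-G18 A and B it went from 0.01 and 0.02 to -0.01 and 0.01. The median log2 difference between the groups was -0.05 in the shortest and 0.09 in the longest class. Without overlap, 7.37% of genes were higher and 11.4% lower in the shortest class, and 16.4% and 4.53% in the longest. Among all genes these shares were 8.48% and 8.23%. The genes called higher had a median exon length of 1200.5 bases, the genes called lower 1504 and all genes tested 1952. The part of length in the calls was not tested.

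Whether the microbiome source acted differently in the other germline was tested as the interaction of both sources, that is the difference of the M18 and M25 groups in the G18 germline minus that in the G25 germline. Of the genes tested, 1 passed (limma, 0.00913%), against 962 (8.79%) without the adjustment. This was mt:ND1, with an interaction of -2.38 (standard error 0.32, adjusted p = 0.00344). Its values were 1719 to 2077 in F2-M18-G25 and 915 to 1296 in F2-M25-G25. With the control germline the M18 group was thus the higher one, and with the cold-history germline the lower one. The median of the 10 mitochondrial genes was -1.71, and the 9 others did not pass. Without replicate A of F2-M25-G25 limma called 0 genes, with 749 at an unadjusted p under 0.05. The value of the interaction is the same under either reading of the library names.

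The same genes in the F1 flies, whose libraries enter the F2 comparison only through the shared estimate of the spread, show how these transcripts differed between cold-treated and control parents. In F1, 2615 of the 10950 genes passed (23.9%), 1229 higher (11.2%) and 1386 lower (12.7%) in F1-18. Of the 36 genes higher in F2-M18-G18, 1 was higher and 4 were lower in F1-18. Of the 43 lower genes, 8 were also lower in F1-18 and 6 were higher. CG42852, the lower gene with the largest drop in F1, had 488 to 732 in F1-25 and 165 to 193 in F1-18. In the F2 groups it had 228 to 255 in F2-M18-G18 and 360 to 404 in F2-M25-G18 (log2 difference -0.65, adjusted p = 0.0129), between those levels. The mitochondrial genes differed in sign between the generations, with a median of 0.40 in F1-18 against F1-25, where mt:ATPase6, mt:CoIII and mt:ND2 rose.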

How the data were processed

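RNA was taken from 20 whole males per library. Per the study's methods, ribosomal RNA was depleted and stranded libraries were made. The authors removed remaining ribosomal reads with SortMeRNA, trimmed with Trimmomatic 0.32, aligned with STAR 2.4.0f1 to the Release 6 genome, counted unique reads per gene and strand with HTSeq 0.6.1 and normalised the counts by TMM in edgeR. The deposited values are a normalised signal per gene that is not whole, so limma 3.58.1 (R 4.3.3) was used on log2(value + 2), two-sided, with a mean-variance trend, 1 mean per condition and 1 spread over all 22 libraries. In 7150 genes F2-M25-G25 replicates C and D equal the mean of A and B plus a whole number within 0.001. These calculated values were treated as missing. Adjusted p-values cover all 10950 genes. Coordinates are of Release 6 (Ensembl annotation, 11888 genes matched). Same-letter libraries did not deviate together (correlations -0.04, -0.01 and -0.09). The fit was tested on simulated data with the same dispersion in all genes and no library that stood apart. That test does not cover a library such as replicate D of F2-M25-G18.

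The members and the gene lists were chosen with earlier results of these data known. The genes named were the 12 largest increases and 12 largest decreases past the threshold without overlap, the ends of each list and the list members that passed. Others are said to be chosen after their values were seen, or are given as counts behind a position or a function. Alternatives covered scaling, filter, pseudocount, libraries, replicate block, calculated values, test and the exchange of the crossed groups. Scaling to equal totals of the nuclear genes and leaving out the 3 libraries with the read total of another condition were added after the data were seen. Other tables used Python 3.11.15, numpy 2.4.6, pandas 2.3.3 and scipy 1.17.1.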

Additional observations from a re-analysis of the deposited data

Results flagged for a closer look

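The difference of mt:ND1 between the microbiome sources differed between the germline sources, with an interaction of -2.38 on the log2 scale (limma, adjusted p = 0.00344). No other gene passed, and 0 genes passed without replicate A of F2-M25-G25. Replicates A and D of F2-M25-G18, which enter this value, have read totals that the study lists under F2-M25-G25. Which source is the microbiome and which the germline rests on the library names.

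In 167 genes that were called or are named with their values, the 4 libraries of F2-M18-G18 were examined for a library far from the other 3. Such a library was found in 15 genes. Many of the 167 were chosen by their values, and genes that share a library are not independent, so no chance rate applies. Of the 15 genes, 5 had been called. CG8289 had 49.8 in replicate C against 63.7 to 65.6 in the others. CG12111 had 63.5 in replicate C against 74.7 to 75.9. CG41520 had 190.5 in replicate C against 160.8 to 164.3. Ttc19 had 95.7 in replicate B against 75.9 to 79.1. Mst98Ca had 1881 in replicate B against 1763 to 1767. In each of the 5 genes the library that stood apart still lay on its group's side of all F2-M25-G18 libraries.

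In the 10 others, none of which was called, replicate D stood apart in 5 and replicate B in 4. In replicate D, betaTry had 190.1 against 15.6 to 28.2, Jon99Ciii, a protease of the gut, 38.5 against 4.42 to 7.69, Acp54A1 37.8 against 1.01 to 5.01, Sgp 94.5 against 8.57 to 21.7 and ftz-f1 322 against 280 to 285. In replicate B the immune genes AttC had 60.1 against 2.68 to 5.48, DptB 26.9 against 0.482 to 3.27, Drs 263 against 193 to 203 and PGRP-SB1 83.2 against 23.7 to 26.4. LysE had 58.1 in replicate A against 50.5 to 51.1.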

How the results depend on the processing

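The 79 genes became 194 (82 higher, 112 lower) with only the 7 libraries fitted, 322 (165 and 157) with the F2 libraries alone and 152 (68 and 84) with the calculated values as in the file. The interaction then had 15 and 21 genes under the last 2 settings. With the crossed groups exchanged 206 genes passed and 0 mitochondrial genes. Without the 3 libraries with the read total of another condition both counts were 0, in a fit with 1 library in F2-M25-G18, whose spread is then taken from the other groups, although all 79 kept their sign and the mitochondrial median was -1.18. Leaving out 1 of the 7 libraries compared gave 4 to 50 genes and 2 to 9 mitochondrial genes, and leaving out 1 of the 15 others, which set the spread only, gave 61 to 110 genes and 9 mitochondrial genes. Leaving out 1 library of their own groups gave 1486 to 2801 genes in F1 and 0 or 1 for the interaction. With the replicate block 66 genes passed (21 higher, 45 lower, 57 of the 79). Same-letter libraries did not deviate together, and whether they share parents was not tested. Scaling by median of ratios gave 79, equal totals of nuclear genes 58 (26 and 32), no filter 72, no trend 65 and a robust spread 67. In these, the direction of all 79 was as before.

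With the crossed groups exchanged the sign reversed in 16 of the 24 leading genes, and the cause was not tested. CG9016 was then at -0.11, CG2652 at -0.0728, CG8584 at -0.0820, CG32440 at -0.19, CG42688 at -0.14 and CG11663 at -0.0344. Of the 12 lower genes mt:ND1 (-0.0716) and Mzt1 (-0.75) stayed negative, and 10 turned positive, with mt:ND5 at 0.12, mt:ND3 at 0.0856, mt:ND4 at 0.0361, mt:Cyt-b at 0.14, mt:CoII at 0.14, mt:ATPase6 at 0.0838, mt:CoI at 0.17, mt:CoIII at 0.22, UQCR-11 at 0.0450 and COX7AL2 at 0.18.

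The comparison has 3 and 4 libraries. Replicate D of F2-M25-G18 had the highest mitochondrial share and the widest length trend. Without it 4 genes were called, and without any other library compared 19 to 50 were. All 79 kept their sign in each of these fits. The group of the crossed libraries rests on their names.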

Other observations

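The storage proteins that the larval fat body leaves in young adults were higher in F2-M18-G18 in most members without a call. Lsp2 had 23298, 18374, 22126 and 22012 in F2-M18-G18 A to D and 14516, 16196 and 12812 in F2-M25-G18 A, B and D, a log2 difference of 0.57 (limma, adjusted p = 0.635). Lsp1beta, Lsp1alpha, Fbp1 and Fbp2 did not overlap between the groups either, where 8.48% of all genes were higher without overlap. None of the list's 7 genes passed. The standard errors of these genes, 0.46 to 0.91, came from the spread over all conditions. Sgp, at the other end of the list, had 8.57 to 94.5 against 48.6 to 134 (-2.09, adjusted p = 0.29). After the exchange of the crossed groups 6 of the 7 genes passed, all higher, with Lsp2 at 2.20 (adjusted p = 0.0119) and Fbp1 at 2.28 (adjusted p = 0.0117), and the median of the list was 2.24.

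Genes of the ecdysone response were higher in 15 of 17, with a median of 0.20 and no call. E23, a transporter induced by ecdysone, had 110 to 123 in F2-M18-G18 against 70.9 to 89.95 in F2-M25-G18 (log2 difference 0.49, limma, adjusted p = 0.0732). Hr4, a nuclear receptor of the same response, had 155 to 251 against 94.2 to 150 (0.65, adjusted p = 0.162), and ftz-f1, a nuclear receptor of the later response, was the lowest (-0.28). Among 18 heat shock genes 12 were higher, with Hsp70Bb at 14.7 to 41.1 against 4.97 to 12.5 (1.17, adjusted p = 0.511) and Hsc70-1 at the other end (-0.17). Copies of Hsp70 are nearly identical, so that its unique reads are few. The 3 cold acclimation genes had a median of 0.00, with smp-30 at -0.14 and Fst, induced by cold in other work on this species, at 0.47.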
